A study of Mus musculus with 60 samples.

Results

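The genes of oxidative phosphorylation were followed through all bulk libraries of a study of mouse cancer-associated fibroblasts (CAFs). They were taken by symbol from the 48440 genes counted: subunit names beginning Ndufa, Ndufb, Ndufc, Ndufs, Ndufv, Uqcr, Cox4 to Cox8 or Atp5, the symbols Sdha to Sdhd, and the protein-coding mt- genes. Of 111 matching rows, 6 pseudogene rows were left out, which gave 105 genes, 13 encoded by mitochondrial DNA and 92 by nuclear chromosomes. By symbol, the nuclear genes were 38 of complex I, 7 assembly factors of complex I (Ndufaf1 to Ndufaf7), 4 of complex II, 8 of complex III, 18 of complex IV and 17 of complex V. Atp5sl is counted with complex V by its symbol only, since GENCODE M21 names it Dmac2. The mitochondrial genes were 7 of complex I, 1 of complex III, 3 of complex IV and 2 of complex V.

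The study asked how lung cancer cells change the RNA of CAFs that share a culture with them. The fibroblasts, called tCAFs in the labels, were grown alone or with mouse lung adenocarcinoma cells of the 393P line, which metastasizes poorly, or the 344SQ line, which metastasizes readily. In multicellular aggregates, where the cells touch, the 3 groups were CAFs alone, CAFs with 393P and CAFs with 344SQ, and a separate table held aggregates with 344SQ cells carrying shCTL (the control hairpin) or shZEB1 (a hairpin named for the transcription factor ZEB1), with 3 biological replicates in each of these 5 groups. In Boyden chambers, where a porous membrane keeps the cells apart, CAFs alone, CAFs with 393P and CAFs with 344SQ had 5 biological replicates each, every one sequenced as 3 technical libraries, which were summed. All 60 libraries came from CAFs enriched by flow sorting before lysis. The titles of the aggregates of CAFs alone read CAF-GFP, and the labels do not explain the prefix t, the gate, or whether biological replicates were separate isolates of CAFs, so p-values measure the spread between these samples only.

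Oxidative phosphorylation takes place in the inner mitochondrial membrane. Complexes I and II pass electrons from NADH and succinate to ubiquinone, complex III passes them to cytochrome c, complex IV passes them to oxygen, and complex V uses the proton gradient that complexes I, III and IV build to make ATP. Mitochondrial DNA encodes a few core subunits of complexes I, III, IV and V, transcribed together from the circular genome, whereas all other subunits, and all of complex II, are encoded in the nucleus and imported.

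Of the mitochondrial genes, 5 have near-complete annotated copies in nuclear chromosome 1. There, between chr1:24611535 and chr1:24616197 on the minus strand (GENCODE M21, GRCm38, the same assembly as mm10), lie 7 annotated pseudogenes that repeat a stretch of the mitochondrial genome. mt-Co2, mt-Atp6, mt-Co3, mt-Nd3 and mt-Nd4l have annotated copies there with 100% identity over 98.3% to 99.9% of the gene. mt-Nd4 is copied there over 63.6% of its length, and mt-Co1 over 31.3% with 1 mismatch. A second copy of mt-Co1, Gm13340 at chr2:22588103-22589647 on the minus strand, covers the whole gene at 97.6% identity. mt-Nd1, mt-Nd2, mt-Nd5, mt-Nd6, mt-Cytb and mt-Atp8 have no annotated copy at 97% identity or more over at least 100 bases. The bases that mt-Atp8 (chrM:7766-7969) shares with mt-Atp6 are copied in Gm10925, and its other bases lie between the copied genes mt-Co2 and mt-Atp6. Only annotated transcripts were searched, so whether those other bases are repeated on chromosome 1 too was not tested. How reads that match more than 1 place were counted is not given in the sources used here. The first 60 bases of mt-Co3 and mt-Atp6 and of their chromosome 1 copies, Gm28437 and Gm10925, are shown 5′ to 3′ on the strand of each gene because reads from such a stretch cannot be placed by sequence. Each pair is the same in every base, and no base is in capitals.
mt-Co3 at chrM:8607-8666 (plus strand): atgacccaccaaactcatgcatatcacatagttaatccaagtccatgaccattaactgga
Gm28437 at chr1:24613912-24613971 (minus strand): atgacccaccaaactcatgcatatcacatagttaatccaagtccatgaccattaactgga
mt-Atp6 at chrM:7927-7986 (plus strand): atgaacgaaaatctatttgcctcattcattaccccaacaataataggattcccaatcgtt
Gm10925 at chr1:24614592-24614651 (minus strand): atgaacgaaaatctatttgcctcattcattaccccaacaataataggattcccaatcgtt

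Levels of the mitochondrial genes spanned a wide range. Levels between genes are compared in CPM per kilobase of exon, where CPM is a gene's counts scaled to the same total in every library, here over all counts. In Boyden libraries of CAFs alone, mt-Co1, the catalytic subunit of complex IV, stood at 19043 ± 1673 CPM per kilobase (mean ± SD, n = 5). mt-Cytb, the cytochrome b of complex III, stood at 5528 ± 758, and the complex I subunits mt-Nd2, mt-Nd1 and mt-Nd5 at 4025 ± 662, 3999 ± 500.1 and 3788 ± 487, 3 neighbouring levels whose spreads overlap. mt-Nd4 followed at 1786 ± 237 and mt-Nd6 at 835 ± 95.98, each below the gene before it by more than the spread. mt-Nd6 is read from the opposite strand within the span that overlaps mt-Nd5 at its end, and whether counting used strand is not given in the sources used here.

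The 5 genes copied on chromosome 1 over nearly their whole length were among the lowest, together with mt-Atp8. mt-Co3 was at 69.8 ± 10.6 CPM per kilobase and mt-Atp6 at 60.8 ± 9.08 in the same libraries, and across all 15 Boyden sums the 5 copied genes covered 3.92 to 94.6. mt-Atp8 was at 34.1 ± 6.89, within the range of the copied genes. It has no annotated copy of its own, but its end, which overlaps mt-Atp6, is copied. In aggregates of CAFs alone the copied genes covered 11.4 to 101 CPM per kilobase, mt-Nd4 and mt-Co1 590 to 6502, and the 6 genes without an annotated copy 12.95 to 3273. Among those 6, mt-Nd6 at 53.4 to 78.1 and mt-Atp8 at 12.95 to 24.8 lay within the range of the copied genes there. In Boyden sums mt-Atp8, at 25.5 to 64.9, again lay within that range. mt-Nd6, the next lowest gene without an annotated copy, was at 721 to 1087 in Boyden sums, above all 5 copied genes. The part of the copies in these levels was not tested. Values for mt-Co2, mt-Co3, mt-Atp6, mt-Nd3 and mt-Nd4l are uncertain throughout, since mitochondrial and chromosome 1 reads share their sequence. For mt-Atp8 the extent of such sharing was not tested.

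**Figure D1:**
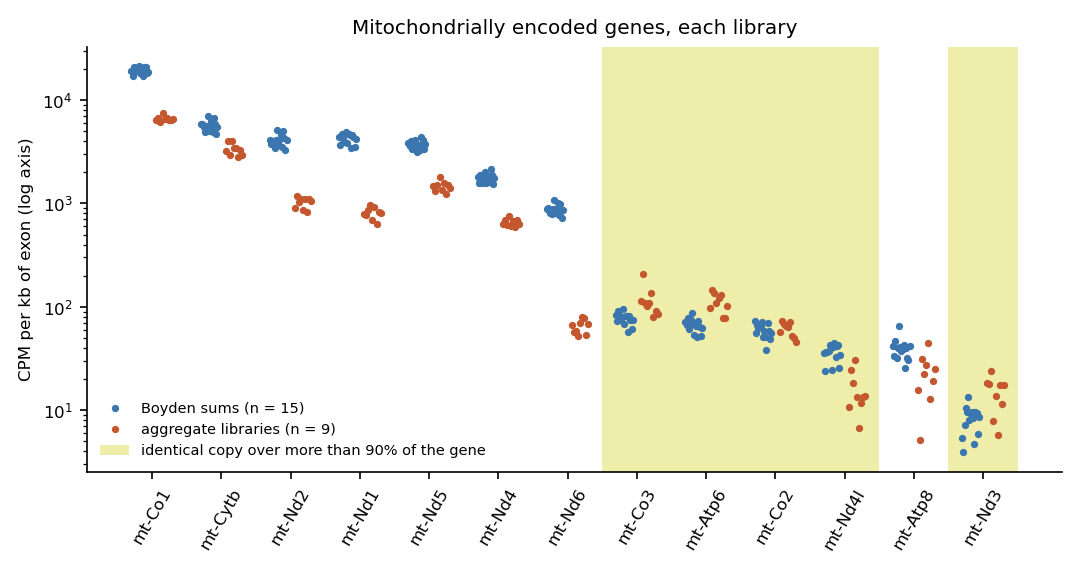
CPM per kilobase (log axis) of the 13 mitochondrially encoded genes in the 15 Boyden sums and the 9 aggregate libraries, 1 point per library; shading marks the 5 genes with an identical chromosome 1 copy over more than 90% of their length. In Boyden libraries the shaded genes lie between 3.92 and 94.6, and mt-Co1 lies between 16908 and 21143.

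Among nuclear members the order per kilobase was led by small subunits of complex IV and by Ndufa4, whose symbol places it in complex I although it is now assigned to complex IV. In Boyden libraries of CAFs alone the highest were Cox8a at 398 ± 25.4, Cox6a1 at 389 ± 68.5, Ndufa4 at 319 ± 18.5 and Cox6b1 at 318 ± 21.9 CPM per kilobase. Cox8a and Cox6a1 did not differ beyond their spread, nor did Ndufa4 and Cox6b1. Atp5h, a stator subunit of complex V, was next at 249 ± 13.2.

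The fibroblast identity of the libraries was checked with 10 markers, whose summed level was 3964 to 8633 CPM in aggregates, 6731 to 9145 in Boyden sums and 1711 to 4413 in the shRNA table. Not all markers were high. Lum was at 0 to 3.18 CPM in aggregates and 0 to 1.37 in Boyden sums. Fap was at 5.28 to 128 CPM in aggregates, 1.21 to 3.52 in Boyden sums and 0 to 25.6 in the shRNA table. Dcn was at 9.06 to 87.2 CPM in aggregates and 52.7 to 115 in Boyden sums. Col1a1, Col1a2 and Vim were high in both. Summed carcinoma markers (14 genes) were 5.07 to 10.6 CPM in aggregates of CAFs alone, 21.7 to 89.7 with 393P and 12.7 to 27.5 with 344SQ. Sftpc was at 0 in every aggregate library, whereas Krt8 reached 39.3 CPM and Krt19 25.2 CPM. The carcinoma sum was 115 to 1625 in the shRNA table, where mural markers (6 genes) also reached 92.1 to 269 CPM against at most 4.35 elsewhere. Total counts were 757717 to 1258751 in aggregates, 739530 to 2144803 in the shRNA table and 4182944 to 8542262 in Boyden sums. The biological coefficient of variation, the spread beyond counting noise, was 8.58% in Boyden sums, 16.2% in aggregates and 61.7% in the shRNA table. Boyden sums had both the most counts and the lowest coefficient, and so give the most precise values. Genes resembling ribosomal RNA took 0.942% to 1.69% of Boyden counts, 19.3% to 25.0% of aggregate counts and 18.4% to 25.8% of shRNA counts. After the filter on low counts, the test covered 86 of 92 nuclear and 13 of 13 mitochondrial members in Boyden sums, 46 and 10 in aggregates and 68 and 12 in the shRNA table.

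As a share of all counts, the 13 mitochondrial members took 4.74% to 6.18% in Boyden sums, 1.78% to 2.26% in aggregates and 1.85% to 3.31% in the shRNA table. The 92 nuclear members took 0.730% to 0.908%, 0.119% to 0.136% and 0.201% to 0.250%. Over all counts, the Boyden sums lay above both other tables in both shares. With rRNA-like genes and mitochondrial rRNA and tRNA left out of the total, the mitochondrial share was 5.10% to 6.85% in Boyden sums (median 5.95%), 3.05% to 3.89% in aggregates (median 3.32%) and 3.67% to 7.59% in the shRNA table, which then overlapped with the Boyden sums. The nuclear share, with rRNA-like and all mitochondrial genes left out of the total, was 0.855% to 1.06%, 0.205% to 0.266% and 0.429% to 0.507%. Within a table the culture groups overlapped in the mitochondrial share. In the nuclear share over all counts they overlapped in Boyden sums, whereas aggregates with 344SQ (0.134% to 0.135%) lay above CAFs alone (0.121% to 0.131%) and shZEB1 (0.246% to 0.250%) above shCTL (0.201% to 0.233%). With rRNA-like and mitochondrial genes left out, both of these pairs overlapped, at 0.231% to 0.266% against 0.214% to 0.232% and 0.443% to 0.507% against 0.429% to 0.499%. In these bulk libraries, fewer cells of a type and less RNA per cell cannot be told apart.

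The technical libraries of the Boyden chamber did not behave alike. The mitochondrial share of single technical libraries ran from 3.28% to 8.46%, and the median SD among the 3 libraries of 1 replicate was 1.59 percentage points. Between replicates of a group, with the 3 libraries of each averaged first, the median SD was 0.353, so the 2 values are unlike measures. Single libraries of the same number spread too, from 3.28% to 6.01% for number 3 of CAFs alone. By number, the mean mitochondrial share over libraries 1, 2 and 3 was 6.72%, 5.53% and 4.32% for CAFs alone, 7.49%, 5.16% and 5.03% with 393P and 7.11%, 6.18% and 4.28% with 344SQ. The nuclear share went the other way, 0.713%, 0.789% and 0.875% for CAFs alone, 0.679%, 0.931% and 0.911% with 393P and 0.675%, 0.727% and 0.879% with 344SQ. Boyden results below are therefore also given for each technical number alone, and with the 3 numbers weighted equally, an alternative chosen after seeing the data.

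**Figure D2:**
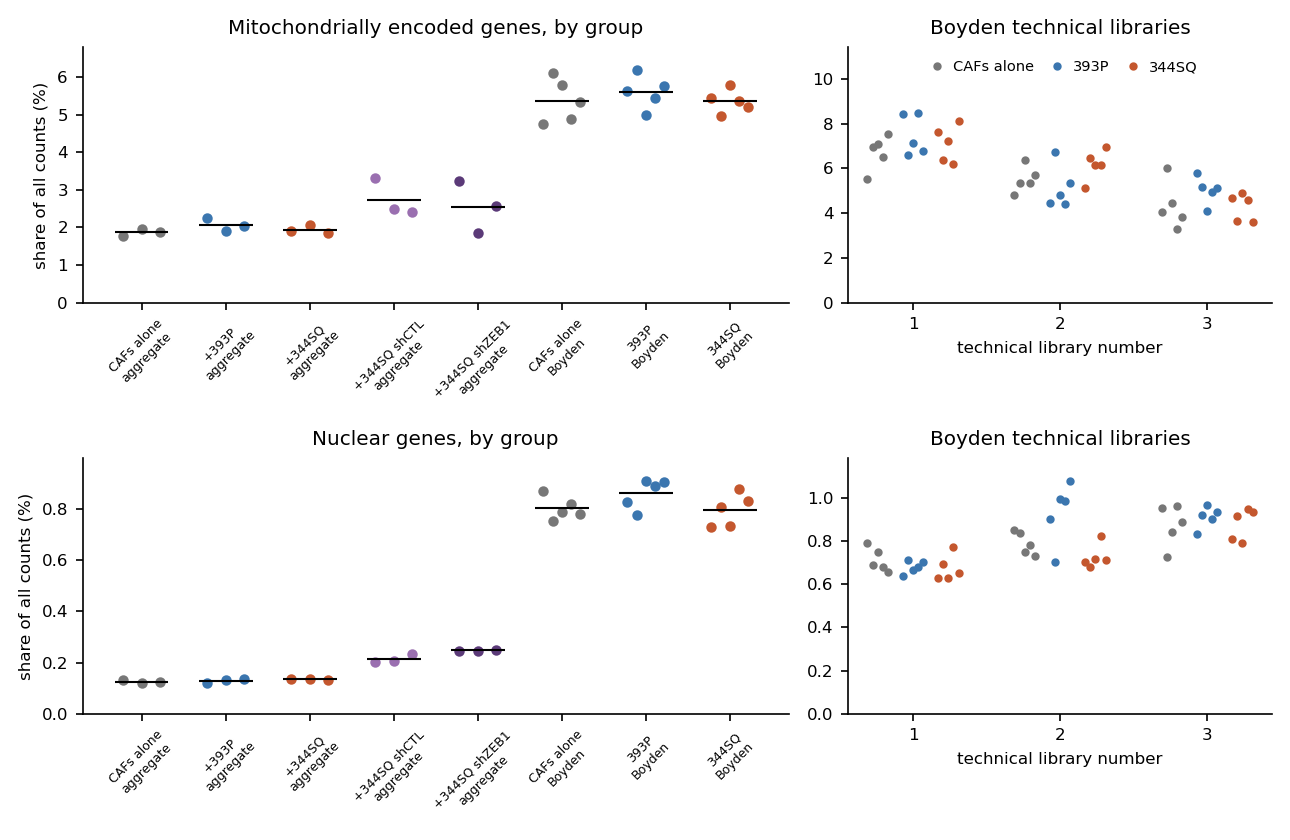
Share of all counts (%) taken by the mitochondrially encoded genes (top) and the nuclear genes (bottom), 1 point per replicate in the 8 groups with a bar at the mean (left), and 1 point per Boyden technical library by its number (right). The Boyden groups lie above all aggregate groups in both shares, and from number 1 to 3 the mitochondrial share falls while the nuclear share rises.

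Across the membrane from 393P cells, 15 nuclear OXPHOS genes rose and 1 fell. The largest rises were Uqcrfs1, Ndufb3, Uqcrb, Ndufa5, Cox6c and Cox5a, between 0.34 and 0.54 on the log2 scale, and Cox6a1 alone fell. With edgeR's quasi-likelihood test and Benjamini-Hochberg adjustment over all genes (adjusted p below 0.05), that was 18.6% of the 86 nuclear members tested, against 15.6% of all 14040 genes, so the share called was near the background, while 7.68% of all genes were higher and 7.96% lower. By complex, 7 of 37 tested subunits of complex I rose, 0 of 7 assembly factors, 0 of 4 of complex II, 2 of 8 of complex III, 3 of 13 of complex IV and 3 of 17 of complex V. The median log2 change of the nuclear members was 0.07, against 0.00 for all genes; 54 of 86 were above 0, and 15 of 17 in complex V.

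Uqcrfs1, the Rieske iron-sulfur protein of complex III (ENSMUSG00000038462, chr13:30540308-30545362, minus strand), had 49.9, 56.7, 54.1, 50.1 and 46.8 CPM in the 5 replicates of CAFs alone, on the scale of trimmed-mean (TMM) library sizes used for all values below. It had 66.6, 73.1, 76.7, 76.98 and 81.1 CPM with 393P. All 5 libraries with 393P were above all 5 of CAFs alone, and the log2 change was 0.54 ± 0.10 (SE; edgeR adjusted p = 9.25e-04). Uqcrb, a small subunit of complex III (ENSMUSG00000021520, chr13:66900617-66905378, minus strand), had 106, 106, 118, 108 and 105 CPM in CAFs alone and 133, 136, 146, 152 and 160.1 with 393P. These groups did not overlap either, and the change was 0.42 ± 0.08 (edgeR adjusted p = 9.10e-04). Uqcrb overlaps the gene Gm10767 and has 3 annotated copies that cover 39.8% of it, so its counts are less certain than those of Uqcrfs1, for which no copy or overlap was found. Uqcrc1, a core subunit of the same complex, had 61.6, 46.3, 52.6, 57.97 and 57.4 CPM in CAFs alone and 57.5, 45.1, 64.5, 50.7 and 57.4 with 393P, groups that overlapped (log2 change -0.00, edgeR adjusted p = 0.992).

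In complex I, the accessory subunit Ndufb3 (ENSMUSG00000026032, chr1:58586384-58595964, plus strand) had 39.2, 41.1, 40.9, 31.4 and 36.1 CPM in CAFs alone and 48.2, 50.8, 48.1, 49.7 and 58.1 with 393P. The lowest library with 393P was above the highest of CAFs alone (log2 change 0.44 ± 0.10, edgeR adjusted p = 0.00428). Ndufa5 (ENSMUSG00000023089, chr6:24518666-24528013, minus strand), another accessory subunit, had 69.5, 68.7, 73.4, 73.1 and 72.6 CPM in CAFs alone and 92.9, 75.1, 96.7, 106 and 103 with 393P. Its groups also stayed apart, by a gap between 73.4 and 75.1 CPM, and the change was 0.41 ± 0.08 (edgeR adjusted p = 0.001). Smaller rises were called for Ndufb11, Ndufb6, Ndufab1, Ndufa6 and Ndufa4, at 0.30, 0.29, 0.29, 0.29 and 0.23 on the log2 scale. Among these 5, the groups of Ndufb6 did not overlap and those of the other 4 did. Ndufb11 overlaps Rbm10 and Ndufb6 overlaps Smim27 in the annotation. Ndufab1, the mitochondrial acyl carrier protein, overlaps Gm44986. The core subunit Ndufs1, which carries iron-sulfur clusters, had 34.6, 37.3, 42.3, 44.1 and 38.6 CPM in CAFs alone and 41.5, 36.9, 35.7, 42.8 and 39.8 with 393P, and its groups overlapped (log2 change -0.00, edgeR adjusted p = 0.992).

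**Figure D3:**
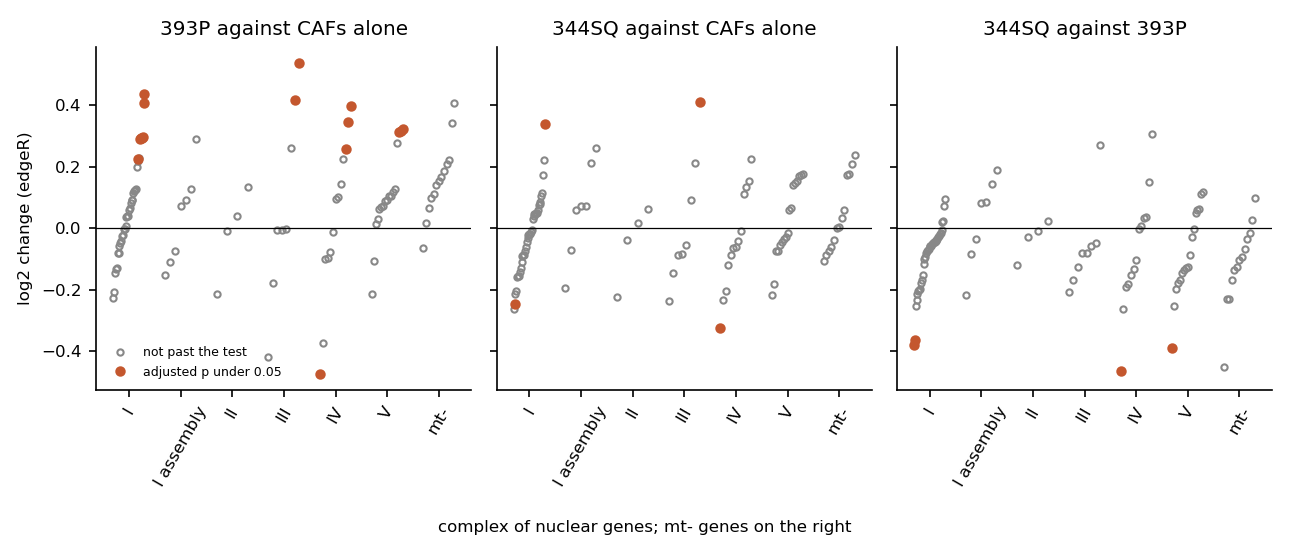
Log2 changes of the nuclear and mitochondrial members by complex in the 3 Boyden comparisons, 1 point per gene; filled points passed an adjusted p of 0.05. With 393P the filled points lie mostly above 0 in complexes I, III, IV and V, and between the cancer lines all 4 filled points lie below 0.

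In complex II, the flavoprotein subunit Sdha had 64.1, 62.1, 69.2, 68.1 and 71.2 CPM in CAFs alone and 66.2, 61.1, 73.97, 65.3 and 66.2 with 393P, and the groups overlapped (log2 change -0.01, edgeR adjusted p = 0.939). No member of complex II passed the test in any comparison. By edgeR's quasi-likelihood test 1 of the 4, Sdhc, had an unadjusted p under 0.05 in this one (log2 change 0.14, adjusted p = 0.169).

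In complex IV, members moved in both directions. Cox6c (ENSMUSG00000014313, chr15:35925886-35938246, minus strand), a small nuclear subunit, had 250.4, 257, 255, 253 and 240.3 CPM in CAFs alone and 301, 293, 336, 355 and 368 with 393P. The groups were apart (log2 change 0.40 ± 0.08, edgeR adjusted p = 0.00184). Cox5a (ENSMUSG00000000088, chr9:57521274-57532426, plus strand) had 19.5, 23.02, 22.1, 19.7 and 20.96 CPM in CAFs alone and 24.02, 24.9, 30.2, 26.6 and 28.1 with 393P, again without overlap (log2 change 0.34 ± 0.09, edgeR adjusted p = 0.00924). Cox7c was the other complex IV subunit that rose, by 0.26, with groups that overlapped and with 2 annotated copies covering 32.9% of the gene.

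Cox6a1 (ENSMUSG00000041697, chr5:115345642-115348981, minus strand), the broadly expressed isoform of subunit VIa, went the other way. It had 331, 217, 249, 305 and 264 CPM in CAFs alone and 203, 182, 204, 182 and 212 with 393P. The highest library with 393P was below the lowest of CAFs alone, and the gene fell by 0.47 on the log2 scale (SE 0.11; edgeR adjusted p = 0.00387). CAFs alone covered a range of 217 to 331 CPM, the widest spread relative to its mean among the complex IV genes named in this paragraph and the one before. By technical number alone, the change of Cox6a1 was -0.70, -0.03 and -0.73.

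In complex V the 3 rises were Atp5f1, Atp5g3 and Atp5j. Atp5f1, the subunit b of the stator, had 258, 254, 243, 252 and 244 CPM in CAFs alone and 279, 277, 323, 322 and 357 with 393P, without overlap (log2 change 0.32 ± 0.07, edgeR adjusted p = 0.00482). Atp5g3, 1 of the 3 genes for the subunit c of the rotor ring, had 238, 258, 260.4, 241 and 238 CPM in CAFs alone and 284, 283, 301, 344 and 332 with 393P, also without overlap (0.32 ± 0.08, edgeR adjusted p = 0.00816). Atp5j, the coupling factor F6, changed by 0.31 ± 0.09 (edgeR adjusted p = 0.0159) with groups that overlapped. The catalytic subunit Atp5b and the subunit alpha gene Atp5a1 did not pass, at 0.07 (edgeR adjusted p = 0.446) and 0.12 (edgeR adjusted p = 0.256).

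The 16 calls did not rest equally on the 3 technical numbers. With technical library 1 alone, 12 of the 16 genes kept their direction, their median change was 0.13 and 0 passed edgeR's quasi-likelihood test. With libraries 2 or 3 alone all 16 kept their direction, with medians of 0.43 and 0.36, and 0 and 11 passed. Weighted equally, 10 nuclear members passed by limma-trend, and Atp5j, Cox5a, Ndufa6, Ndufab1, Ndufb11 and Ndufb6 were lost. Leaving out 1 replicate at a time gave 9 to 18 nuclear calls, the lowest without replicate 5 of CAFs alone, and 10 without replicate 5 with 393P. Of the 16 genes, 7 lost their call in at least 1 of these fits (Atp5j, Cox7c, Ndufa4, Ndufa6, Ndufab1, Ndufb11 and Ndufb6, adjusted p = 0.0514 to 0.0938), and 9 kept it in all. The part of the technical numbers in these changes was not tested.

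**Figure D4:**
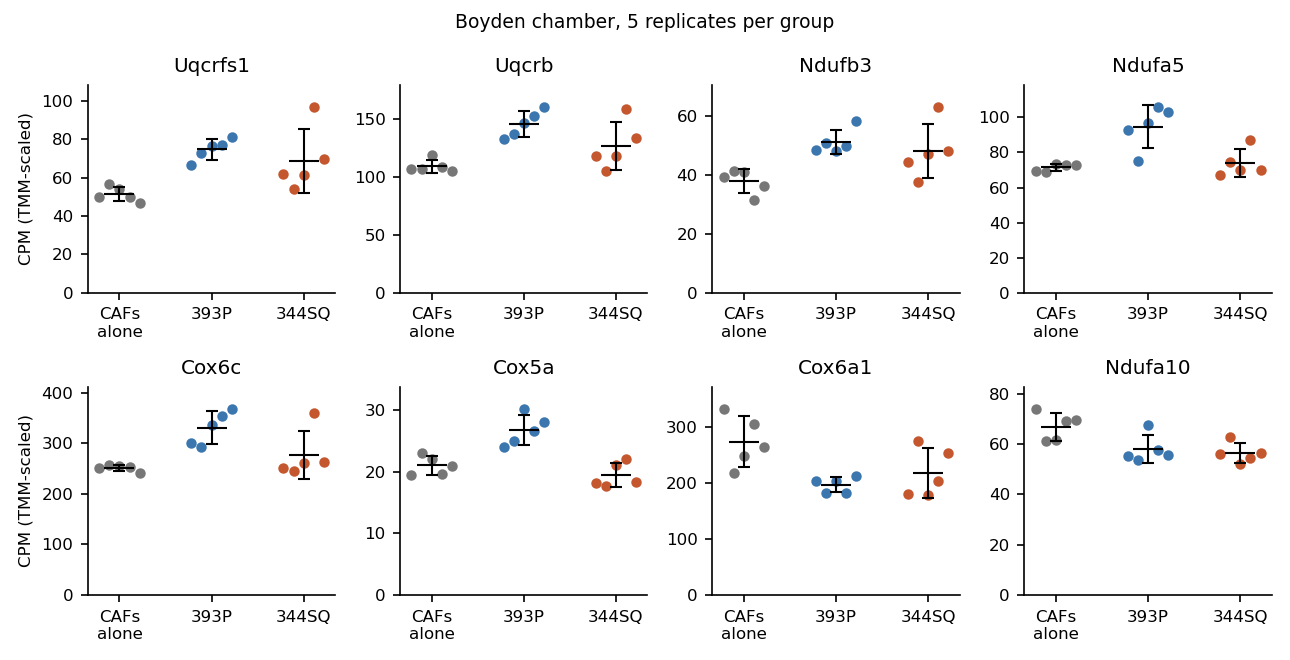
TMM-scaled CPM of 8 nuclear OXPHOS genes in the 5 Boyden replicates of each group, with mean ± SD. For Uqcrfs1, Uqcrb, Ndufb3, Ndufa5, Cox6c and Cox5a the points with 393P lie above all points of CAFs alone, for Cox6a1 they lie below them, and replicate 4 with 344SQ is the highest of its group in all but Cox6a1 and Ndufa10.

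None of the 13 mitochondrial genes passed in the 393P comparison. By edgeR's quasi-likelihood test 3 had an unadjusted p under 0.05 (mt-Atp8, mt-Co3 and mt-Nd1), and DESeq2 also called 0. Their median log2 change was 0.16 and 12 of 13 were above 0. mt-Co1 had 26219.8, 32822, 32169, 27351 and 29053 CPM in CAFs alone and 30797, 33657, 27762, 30041 and 32342 with 393P, and these groups overlapped (log2 change 0.07, edgeR adjusted p = 0.585). mt-Nd1 had 3293, 4439.9, 4203, 3295 and 3982 CPM in CAFs alone and 4428, 4837, 3604, 4496 and 4480.3 with 393P, with overlap too (0.19, edgeR adjusted p = 0.156). Summed carcinoma markers were 15.4 to 27.0 CPM in Boyden sums of CAFs alone, 9.66 to 80.1 with 393P and 20.3 to 40.9 with 344SQ, and 0 of 5 testable ones passed in either comparison. The median log2 change of the 5 testable ones was 0.70 with 393P and 0.87 with 344SQ. Cldn3 was at 0 in all Boyden sums and Epcam at no more than 0.282 CPM. Krt7 reached 26.9 CPM there, Cdh1 17.5, Krt18 13.9 and Krt19 10.3. Summed fibroblast markers were 8691 to 9145 CPM in CAFs alone, 7419 to 7789 with 393P and 6731 to 7458 with 344SQ, with 4 of 9 tested markers lower and 1 higher with 393P, and 5 lower and 1 higher with 344SQ. The part of either marker list in the OXPHOS changes was not tested.

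Across the membrane from 344SQ cells, 2 nuclear members rose, Uqcrfs1 and Ndufb3, and 2 fell, Ndufa10 and Cox6a1. That was 4.65% of 86 (edgeR's quasi-likelihood test), below the 14.9% of all genes that were called (7.43% higher and 7.44% lower), and the median log2 change was -0.02. The comparison shares its CAFs-alone libraries with the one of 393P, so the changes in these comparisons are not independent. Uqcrfs1 had 61.8, 54.1, 61.5, 97.04 and 69.9 CPM with 344SQ, where the value of replicate 2 lay among those of CAFs alone (log2 change 0.41 ± 0.11, edgeR adjusted p = 0.0101). Ndufb3 had 44.4, 37.7, 46.9, 62.9 and 48.1 CPM with 344SQ. These overlapped with CAFs alone (0.34 ± 0.10, edgeR adjusted p = 0.0278), and without replicate 4 of the 344SQ group the change was 0.22 (adjusted p = 0.127). The call was also lost without replicate 5 with 344SQ or replicate 4 or 5 of CAFs alone (adjusted p = 0.0530 to 0.0879).

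Ndufa10, an accessory subunit of complex I (ENSMUSG00000026260, chr1:92439010-92473860, minus strand), had 73.9, 61.1, 61.4, 68.99 and 69.5 CPM in CAFs alone and 56.2, 62.7, 52.1, 54.6 and 56.3 with 344SQ. Only replicate 2 with 344SQ reached the range of CAFs alone, and the gene fell by 0.25 on the log2 scale (SE 0.08; edgeR adjusted p = 0.0307). Cox6a1 had 179.9, 275, 178, 202 and 254 CPM with 344SQ, where replicates 2 and 5 lay within the range of CAFs alone. It fell by 0.32 (SE 0.11; edgeR adjusted p = 0.0449). Ndufa10 did not pass without replicate 1, 3, 4 or 5 with 344SQ or 1, 4 or 5 of CAFs alone (adjusted p = 0.0545 to 0.0910), and Cox6a1 did not without replicate 1, 3 or 4 with 344SQ or 1, 4 or 5 of CAFs alone (adjusted p = 0.0688 to 0.145). None of these 4 genes passed with technical library 1, 2 or 3 alone, though all 4 kept their direction each time, and all 4 passed when the technical numbers were weighted equally. That alternative called 14 nuclear members, 4 higher and 10 lower, and a fit with the replicate number as a block called 1. The count was 1 to 15 when 1 replicate was left out, 15 without replicate 2 with 344SQ and 1 without replicate 4 or 5 of CAFs alone. Of the mitochondrial genes 0 of 13 passed edgeR's quasi-likelihood test, 0 had an unadjusted p under 0.05 and DESeq2 called 0; the median log2 change was 0.01.

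Set against each other across the membrane, 344SQ gave lower values than 393P for 4 nuclear members and higher values for 0, which is 4.65% of 86 against 3.88% of all genes, with 2.52% of all genes higher and 1.36% lower (edgeR's quasi-likelihood test). The median log2 difference was -0.06, and 20 of 86 members were above 0. Cox5a had 18.2, 17.7, 21.05, 22.1 and 18.3 CPM with 344SQ, all below its 5 values with 393P, and fell by 0.46 on the log2 scale (SE 0.10; edgeR adjusted p = 0.00353). Ndufa5 had 67.1, 74.5, 70.2, 87.2 and 70.2 CPM with 344SQ, of which only replicate 4 lay within the range with 393P (log2 difference -0.36 ± 0.08, edgeR adjusted p = 0.00911).

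Atp5j had 288, 236, 344, 311 and 331 CPM with 393P and 212, 232, 210.5, 279 and 220.1 with 344SQ, which overlapped through replicate 4 with 344SQ and replicate 2 with 393P (log2 difference -0.39 ± 0.09, edgeR adjusted p = 0.00971). Ndufb6 had 46.4, 47.8, 58.2, 48.5 and 51.9 CPM with 393P and 34.4, 39.1, 35.4, 48.7 and 36.6 with 344SQ, with overlap through replicate 4 (log2 difference -0.38 ± 0.09, edgeR adjusted p = 0.011). Without that replicate 16 nuclear members passed, the highest count of those that leave out 1 replicate; the lowest was 3. With technical library 2 alone 8 passed, and with 1 or 3 alone 0. Of the mitochondrial genes 0 of 13 passed, with 0 at an unadjusted p under 0.05 and 0 by DESeq2.

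In contact aggregates, none of the 46 nuclear members tested passed in any comparison. Among the genes called across the membrane, Uqcrfs1, Uqcrb, Ndufb3, Ndufa5, Cox5a and Cox7c had too few counts in aggregates to be tested. The same held for Ndufa4, Ndufa6, Ndufab1, Ndufb11 and Ndufb6. edgeR's quasi-likelihood test called 0 of 46 with 393P, with 344SQ and between the lines, where 1, 4 and 2 had an unadjusted p under 0.05 and DESeq2 called 0 each time. The background was 10.7%, 5.84% and 4.15% of 7992 genes. Median log2 changes of the nuclear members were 0.03, 0.10 and 0.09. Standard errors of the 46 tested had medians of 0.35 to 0.37 on the log2 scale, with 3 replicates a group, and whether changes of the size called in the Boyden chamber could have passed here was not tested.

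The nuclear members with unadjusted p under 0.05 in aggregates with 344SQ were Cox6b1, Cox6a1, Cox8a and Ndufs7, so 3 of the 4 belonged to complex IV. Cox6a1 had 43.9, 44.9 and 44.95 CPM in CAFs alone, 53.5, 51.5 and 54.3 with 393P and 62.7, 71.5 and 63.4 with 344SQ. The 3 groups did not overlap (log2 change 0.56 ± 0.21 with 344SQ, edgeR adjusted p = 0.123). Cox6b1, a subunit at the outer face of complex IV, had 14.6, 19.8 and 14.6 CPM in CAFs alone, 23.5, 15.9 and 21.9 with 393P and 26.7, 27.9 and 33.6 with 344SQ. Its libraries with 344SQ lay above both other groups (0.87 ± 0.31, edgeR adjusted p = 0.111). Cox8a had 29.3, 22.5 and 25.1 CPM in CAFs alone, 45.03, 30.1 and 42.8 with 393P and 34.96, 48.5 and 38.2 with 344SQ, where both co-cultures lay above CAFs alone (0.64 ± 0.27 with 344SQ, edgeR adjusted p = 0.205). The median over the 9 complex IV members tested was 0.56 with 344SQ against CAFs alone (8 above 0) and 0.50 against 393P (9 above 0). None of these 9 passed the test, and with 393P their median was 0.15 (5 above 0).

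Of the mitochondrial genes in aggregates, mt-Co3, a core subunit of complex IV, was called with 344SQ. It had 61.2, 71.4 and 68.99 CPM in CAFs alone, 82.6, 85.6 and 111 with 393P and 87.4, 187 and 86.8 with 344SQ. Both co-cultures lay above CAFs alone, and replicate 2 with 344SQ was the highest of all 9. The log2 change with 344SQ was 0.83 ± 0.24 (edgeR adjusted p = 0.0317). Without replicate 2 with 344SQ it was 0.39 (adjusted p = 0.406), without replicate 1, 2 or 3 of CAFs alone the adjusted p was 0.136, 0.0642 and 0.105, and by DESeq2 it was 0.0644. Gm28437, the chromosome 1 copy of mt-Co3 shown above, changed by 0.66 ± 0.19 in the same comparison (edgeR adjusted p = 0.0374), and which of the 2 loci the reads came from cannot be told apart.

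The other mitochondrial genes in aggregates did not pass. With 344SQ 1 of 10 was called, which is 10% against 5.84% of all genes, and with 393P 0 were, with mt-Atp6 at an unadjusted p under 0.05 and 0 called by DESeq2. mt-Atp6 had 51.7, 52.9 and 71.1 CPM in CAFs alone, 76.9, 83.3 and 90.9 with 393P and 63.8, 114 and 93.3 with 344SQ, with libraries of 393P above those of CAFs alone and those of 344SQ overlapping with them (log2 change 0.51 and 0.62, edgeR adjusted p = 0.138 and 0.0956). mt-Co2 had 35.3, 34.4 and 32.4 CPM in CAFs alone, 45.97, 43.6 and 50.1 with 393P and 38.05, 56.98 and 47.6 with 344SQ. Neither co-culture overlapped with CAFs alone (log2 change 0.45 and 0.47, edgeR adjusted p = 0.278 and 0.333). The 3 genes just described are among those with identical copies; mt-Co1, which is far more abundant, had 9679, 9909.7 and 10362 CPM in CAFs alone, 11897, 10064 and 10764 with 393P and 9602, 11899 and 9580.0 with 344SQ, and changed by 0.13 and 0.05. mt-Cytb had 3123, 3749 and 3488 CPM in CAFs alone and 4702, 3960.1 and 4066 with 393P, which did not overlap (0.30, edgeR adjusted p = 0.33). The median of the 10 tested was 0.21 with 393P and 0.15 with 344SQ, where 10 and 9 were above 0, and -0.04 between the lines. Between the lines 0 were called by edgeR's quasi-likelihood test, 0 had an unadjusted p under 0.05 and DESeq2 called 0.

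Contact and membrane were compared in 1 fit over both tables, as the effect in aggregates minus the effect in the Boyden chamber. Contact cannot be told apart from table here, since the tables also differ in culture format, depth and rRNA share. The single effects given below come from the fit of each table alone, so they need not subtract to the difference of the joint fit. Cox6a1 differed for both cancer lines and Cox6b1 for 344SQ. That was 2.33% of 86 nuclear members for 344SQ, against 4.73% of 15193 genes, and 1.16% for 393P, against 8.98%. For Cox6a1 the 344SQ effect was 0.56 in aggregates and -0.32 across the membrane, a difference of 0.92 ± 0.25 (edgeR adjusted p = 0.0208). For Cox6b1 it was 0.87 and -0.09, a difference of 1.01 ± 0.29 (edgeR adjusted p = 0.0283). The 393P effect on Cox6a1 was 0.25 and -0.47, a difference of 0.80 ± 0.26 (edgeR adjusted p = 0.0399). The Boyden values of Cox6b1 were 249, 219, 232, 221 and 208 CPM in CAFs alone and 194, 205, 191, 254 and 220.1 with 344SQ, groups that overlapped.

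These differences kept their direction in every alternative run and lost their call in some. The Cox6a1 difference for 344SQ did not pass without replicate 2 or 3 with 344SQ or any 1 of the replicates of CAFs alone in aggregates (adjusted p = 0.0540 to 0.0709), nor with a single technical number. That of Cox6b1 did not pass without replicate 3 with 344SQ or replicate 1 or 3 of CAFs alone in aggregates (adjusted p = 0.105 to 0.148). The Cox6a1 difference for 393P did not pass in 10 of the 16 fits that left out 1 replicate, among them every aggregate library of CAFs alone and with 393P, and replicates 1 and 4 of CAFs alone and 2 and 4 with 393P in the Boyden chamber. Of the mitochondrial genes 0 of 13 differed for either line, with 1 each at an unadjusted p under 0.05 and 0 by DESeq2.

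In aggregates with 344SQ cells carrying shCTL or shZEB1, edgeR's quasi-likelihood test called 0 of 68 nuclear and 0 of 12 mitochondrial members, and 0 of 7801 genes in all. At an unadjusted p under 0.05 there were 3 nuclear members, 0 mitochondrial ones and 466 genes; DESeq2 called 0 members, with 14 genes higher and 12 lower among all it tested. The median log2 change was -0.003 for nuclear and -0.23 for mitochondrial members. mt-Co1 had 18630.4, 14887 and 11576 CPM with shCTL and 11458, 9014 and 9422 with shZEB1. These groups did not overlap, and the log2 change was -0.59 ± 0.37 (edgeR adjusted p = 0.826). mt-Co3 had 32.1, 29.9 and 31.9 CPM with shCTL and 36.4, 8.80 and 19.2 with shZEB1, so 1 library with shZEB1 was above all 3 with shCTL. Cox6a1 had 60.1, 87.5 and 99.6 CPM with shCTL and 106, 95.4 and 108 with shZEB1, with overlap (log2 change 0.33, edgeR adjusted p = 0.927). Carcinoma markers were highest in shCTL replicate 3, at 1625 CPM, and in shZEB1 replicate 2, at 1137. Without these 2 libraries, an alternative chosen after seeing the data, 0 members passed and the mitochondrial median was -0.32.

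Several complex IV subunits and Ndufa4 have a second isoform known from muscle, lung, testis or hypoxic cells. In Boyden sums the second isoforms named here stood at 4.63 CPM or less. There Cox4i1 had 68.8 to 119.9 CPM and Cox4i2, its lung isoform, 0 to 0.640. Cox6a1 had 178 to 331 CPM and the heart and muscle isoform Cox6a2 0.435 to 4.63. Cox6b1 had 191 to 270.5 CPM and the testis isoform Cox6b2 0.158 to 1.096. Cox8a stood at 222 to 298 CPM and the muscle isoform Cox8b at 0 to 0.152, and Cox7a2 at 42.3 to 69.8 against 0.694 to 1.88 for the muscle isoform Cox7a1. Cox7a2l, which helps join complexes III and IV, had 54.1 to 66.2 CPM in CAFs alone, 65.8 to 75.2 with 393P and 60.8 to 86.8 with 344SQ, and did not pass (0.23 and 0.22, edgeR adjusted p = 0.065 and 0.0767).

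Ndufa4, counted here with complex I by its symbol but now assigned to complex IV, had 402 to 578 CPM in Boyden sums, and Ndufa4l2, its hypoxia-associated relative, had 0 to 1.21. The 2 were not as far apart in aggregates. There Ndufa4 had 4.31, 7.93 and 6.27 CPM in CAFs alone, and Ndufa4l2 had 4.31, 2.64 and 4.18. With shCTL Ndufa4l2 stood at 19.1, 10.2 and 16.4 CPM and with shZEB1 at 9.22, 52.8 and 2.56, the last 3 values covering more than the whole range of shCTL. Mural markers were high in that table, as given above, and their part in the level of Ndufa4l2 was not tested.

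Between formats, nuclear OXPHOS genes kept at 5 CPM or more in Boyden libraries of CAFs alone were mostly lower in aggregates of CAFs alone. Format and table cannot be told apart, so the ratios are a description with no test. On CPM with rRNA-like and mitochondrial genes left out of the total, the Boyden to aggregate ratio of 81 nuclear members was 4.35 at the median (0.694 to 46.4), against 1.14 over 10843 genes. Ndufa4 gave the highest ratio, from 10.9 in aggregates to 508 in the Boyden chamber. The ratio of all genes moved with exon length: its median was 4.82 for genes under 1000 bases, 2.44 from 1000 to under 2000, 1.36 from 2000 to under 4000 and 0.903 above. Members had medians of 4.86, 5.33, 2.85 and 4.35 in those bins, near the median of all genes in the shortest bin and above it in the others. These medians rest on unlike sets. Of 84 members at 5 CPM or more in the Boyden chamber, 81 had enough aggregate counts for a ratio, and the others were left out. Genes with as few aggregate counts stayed in the medians of all genes, which raises those medians. Nuclear members and all genes alike were kept only at 5 CPM or more in the Boyden chamber, so genes high only in aggregates are missing from both. Ndufa4l2, at 6.60 in aggregates and 0.176 in the Boyden chamber (ratio 0.0267), was left out in this way. The 13 mitochondrial members had a median ratio of 1.77 (0.319 to 8.11).

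**Figure D5:**
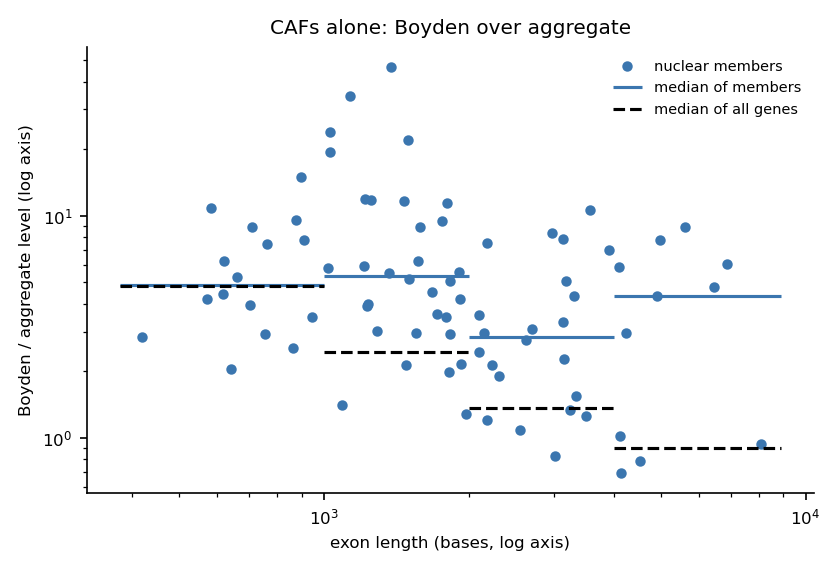
Ratio of the Boyden to the aggregate level in CAFs alone (log axis) against exon length in bases (log axis) for the nuclear OXPHOS genes, with medians of members and of all genes in 4 length bins. In the shortest bin the medians are 4.86 for members and 4.82 for all genes, and in the longest 4.35 and 0.903. Genes with very few aggregate counts are left out of the members but not of all genes. Members and all genes are those at 5 CPM or more in the Boyden chamber.

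Promoters of nuclear OXPHOS genes are known for sites of the nuclear respiratory factor NRF1, a transcription factor that activates many of them. In the RefSeq promoter table of GRCm38.p6 (250 bases before to 50 after the start), 73 members had an entry, and the 250 bases before the start were searched on both strands. The core of the NRF1 motif, in which 1 base is free, stood in 14 of 73 (19.2%) and in 1144 of 27025 genes (4.23%). Of the 12 members with an entry that rose with 393P across the membrane, 1 held it, Ndufa5. CCGGAAGT, a site of the factor GABP, stood in 3 of 73 (4.11%) and 3.23% of all genes, and a motif of the factor YY1 in 0 of 73 and 0.411%. The 250 bases before the RefSeq start of Ndufa5, which rose with 393P, and of Cox6a1, which fell, are shown with the NRF1 core in capitals, at -26 in Ndufa5 and at -162 and -117 in Cox6a1, counted from the RefSeq start to the first base of the match. The stretch of Ndufa5 lies wholly within its GENCODE M21 span given above, and that of Cox6a1 partly within its own. The letters are present before the RefSeq start of both a gene that rose and a gene that fell, and a match is a description and not a measured site.
Ndufa5 at chr6:24527691-24527940 (minus strand): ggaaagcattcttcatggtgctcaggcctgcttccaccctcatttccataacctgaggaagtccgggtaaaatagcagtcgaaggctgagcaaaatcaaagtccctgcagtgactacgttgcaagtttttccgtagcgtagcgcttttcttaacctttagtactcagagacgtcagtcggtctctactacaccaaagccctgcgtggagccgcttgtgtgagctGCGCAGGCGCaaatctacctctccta
Cox6a1 at chr5:115348959-115349208 (minus strand): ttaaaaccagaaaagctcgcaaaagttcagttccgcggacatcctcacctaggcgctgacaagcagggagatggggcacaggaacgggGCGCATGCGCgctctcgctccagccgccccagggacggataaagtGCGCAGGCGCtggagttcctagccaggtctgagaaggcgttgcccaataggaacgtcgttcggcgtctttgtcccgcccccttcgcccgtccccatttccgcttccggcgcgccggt

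The rest of the mitochondrial machinery was followed in lists outside the subunits. With 393P across the membrane, 2 of 20 genes of mitochondrial DNA upkeep and expression rose (10% called), against 15.6% of all genes called and 7.68% higher. They were Tfam, which packages mitochondrial DNA and starts its transcription, at 0.53 ± 0.09 (edgeR adjusted p = 2.29e-04), and the single-strand binding protein gene Ssbp1 at 0.29 ± 0.08 (edgeR adjusted p = 0.00996). Both stood without overlap between the groups. Of 77 mitochondrial ribosomal protein genes tested 9 rose and 2 fell, a share of 14.3% that was near the background of 15.6%. Among those that rose were Mrps6 (0.57), Mrpl13 (0.43) and Mrps30 (0.52). Of 16 genes of import and cristae 4 rose (25% called, against the same 15.6%), among them the chaperone genes Hspa9 (0.32) and Hspe1 (0.33) and the import receptor gene Tomm70a (0.22). Of 20 genes of the tricarboxylic acid cycle Suclg1 and Sucla2, subunits of succinyl-CoA ligase, rose and Ogdh fell, which is 15%. Medians of these 4 lists were 0.06, -0.01, 0.02 and 0.00 on the log2 scale.

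With 344SQ across the membrane these lists were mostly below the test. mtDNA upkeep, the tricarboxylic acid cycle and import gave 0 calls, and of the ribosomal proteins 2 rose and 1 fell (3.90%), against 14.9% of all genes. Cyc1, the cytochrome c1 of complex III that the symbol rule does not take, fell by 0.32 on the log2 scale (SE 0.06; edgeR adjusted p = 7.76e-04), without overlap between the groups. Cycs, the electron carrier cytochrome c, was lower with 344SQ than with 393P (log2 difference -0.33, edgeR adjusted p = 0.0198). Cox10, which acts in the pathway to the heme A of complex IV, was the 1 of 35 assembly factors tested outside the rule that passed, at -0.38 (edgeR adjusted p = 0.0093), and none passed with 393P. Of 9 nuclear regulators Hif1a alone rose, by 0.58 against CAFs alone and 0.72 against 393P. Of 18 glycolysis genes 14 rose and 0 fell with 344SQ (77.8% against 14.9% of all genes, median 0.51), and 4 rose and 0 fell with 393P (22.2% against 15.6%, median 0.16), beside OXPHOS medians of -0.02 and 0.07.

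In aggregates the same lists gave few calls, where 10.7% of all genes were called with 393P and 5.84% with 344SQ. With 393P Mterf4, Hif1a, Mrps25, Pfkfb3 and Tpi1 fell, by -1.45, -0.74, -1.43, -1.90 and -0.79 on the log2 scale, and with 344SQ Pfkfb3 fell, at -1.22. No gene of the assembly, cytochrome c, tricarboxylic acid cycle or import lists passed in any aggregate comparison, and none of any list did with shZEB1 against shCTL (edgeR's quasi-likelihood test).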

How the data were processed

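RNA of flow-sorted mouse CAFs was sequenced as total RNA after sonication and ligation, per the labels' protocols. The deposited tables give whole-number read counts per gene, made with STAR, HTSeq and the mm10 genome per the submitters' processing notes. Versions, strand setting and how reads with several matches were handled: not given in the sources used here. Members and all gene lists were chosen with earlier results of these data known.

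Boyden technical columns were summed per replicate. Within each table, genes were kept by edgeR's filterByExpr, libraries were scaled by TMM, and groups were compared with edgeR's quasi-likelihood test (edgeR 4.0.16, limma 3.58.1, R 4.3.3), with all groups of the table in 1 fit, no block, and Benjamini-Hochberg adjustment over all genes at 0.05. A joint fit of aggregate and Boyden libraries gave the difference between contact and membrane. Tables were tested apart otherwise. The fit was tested on simulated data. Values are TMM-scaled CPM; levels between genes are per kilobase of GENCODE M21 exons. Copies were found among GENCODE M21 transcripts. Tables were made in Python 3.11.15.

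Named were the 13 mt- genes, per comparison the 6 largest rises and 6 largest falls among called nuclear members whose higher group averaged 5 CPM or more, the isoform pairs, 1 subunit per complex and up to 3 called members of each other list. Genes beyond this rule were chosen after their values were seen: Sdhc, Atp5b, Atp5g3, Atp5f1, Ndufb11, Ndufab1, Ndufa6, Cox7c, Ndufs7, Gm28437 and Atp5h. Alternatives were DESeq2 1.42.0, other size factors, no filter, scaling without mitochondrial and rRNA-like genes, the compared groups alone, a replicate block, single technical numbers and each replicate left out; equal weights for technical numbers, and the shRNA table without its libraries richest in carcinoma markers, were added after seeing the data. Depth per sample limits precision as given in the report.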

Additional observations from a re-analysis of the deposited data

Results flagged for a closer look

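In 99 groups of 5 replicates, 1 library stood far from the other 4 in 9, by a criterion that chance meets in about 1 group of 20. In the Boyden chamber with 344SQ, replicate 4 was the highest for Cox6c at 360.0 CPM (others 246 to 262), for Ndufa4 at 526 CPM (429 to 437) and for Ndufb11 at 106 CPM (70.1 to 77.7). The same group had a low replicate 2 for mt-Nd4l at 7.29 CPM (10.7 to 10.9). With 393P, replicate 5 was the highest for Ndufb3 at 58.1 CPM (48.1 to 50.8), replicate 1 for mt-Atp8 at 13.1 CPM and for mt-Nd3 at 4.61 CPM, and replicate 3 stood apart for mt-Nd4l at 7.11 CPM. In CAFs alone, replicate 3 stood apart for Uqcrb at 118 CPM.

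The effect of a cancer line differed between contact aggregates and the Boyden chamber, by a test of the difference in edgeR's joint fit, for Cox6a1 with 344SQ (0.92 on the log2 scale), for Cox6b1 with 344SQ (1.01) and for Cox6a1 with 393P (0.80). Contact and table cannot be told apart in this test.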

How the results depend on the processing

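Of 330 alternative counts of called members, 269 were within 1.5 times the main count. Of 592 alternatives for the log2 changes of 28 gene and comparison pairs, 445 kept direction and call, 143 kept direction and lost the call, and 4 changed direction. These 4 were 393P against CAFs alone in the Boyden chamber with technical library 1 alone: Atp5f1 at -0.0572, Atp5j at -0.0328, Cox5a at -0.15 and Ndufab1 at -0.17. The cause was not tested.

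Nuclear calls in the Boyden chamber with 393P were 16, and 0 with technical library 1 or 2 alone and 10 with equal weights; with 344SQ they were 4, and 0 with any single technical library, 11 with no filter, 2 with only the groups compared and 14 with equal weights; between the lines they were 4, and 0, 8 and 0 with technical libraries 1, 2 and 3 and 10 with no filter. Mitochondrial calls went from 0 to 2 with technical library 1 for 393P, from 0 to 3 with equal weights for 344SQ, from 0 to 1 with technical library 2 between the lines, and from 1 to 0 by DESeq2 in aggregates with 344SQ. For the difference between contact and membrane, the 344SQ effect went from 2 nuclear calls to 1, 1 and 0 with technical libraries 1, 2 and 3 and to 4 with no filter, and from 0 to 1 mitochondrial calls with no filter; the 393P effect went from 1 to 0 with each technical library, DESeq2-style (RLE) or upper-quartile size factors, and scaling without mitochondrial and rRNA-like genes.

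Leaving out 1 replicate gave 9 to 18 nuclear calls with 393P, 1 to 15 with 344SQ and 3 to 16 between the lines in the Boyden chamber, 0 to 3 for the 344SQ effect and 0 to 1 for the 393P effect. In the Boyden chamber mitochondrial calls were 0 to 1 with either line, 1 without replicate 2 of CAFs alone. In aggregates nuclear calls were 0 to 1 with either line, 1 without replicate 2 of CAFs alone, and mitochondrial calls with 344SQ 0 to 2.

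Same-numbered replicates did not deviate together in every pair (correlations -0.30 to 0.26 in the Boyden chamber). Differently numbered pairs were not correlated for comparison, so whether the numbers pair the replicates was not tested. A replicate block gave 15 nuclear calls with 393P, 1 with 344SQ, 4 between the lines and 0 for the 393P effect.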
